A study of Homo sapiens with 6 samples.

Results

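SKOV3 is an established human ovarian adenocarcinoma cell line, and the comparison described here sets RNA of sh-S1 and of sh-S2, a pair of its clones with shRNA to Hic-5, against RNA of its Ctrl clone. It was made up of the 4 arrays labelled with sh-S1 or sh-S2, out of 6 arrays in the series, with 2 dye-swapped arrays for each clone. All 3 SKOV3 clones were transduced with lentivirus made from the pLKO.1-puro vector and selected in puromycin. The vector carried one of 2 shRNAs against Hic-5 in the sh-S1 and sh-S2 clones and a scramble sequence in the Ctrl clone. Each name stands for a single selected clone, so a feature of one clone and an effect of its shRNA cannot be told apart. The other 2 arrays hold RNA of A2780s, another ovarian cancer line, from a clone with the plasmid pCMV-Hic-5 and from its Ctrl, and they served here as a reference for levels. Each Agilent Whole Human Genome array was hybridized with both RNAs at once, one in the green dye Cy3 and one in the red dye Cy5.

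Hic-5 is the protein of TGFB1I1. It belongs to the paxillin family of adaptors at focal adhesions, carries LIM domains, is induced by TGFβ, and also acts in the nucleus as a co-activator of steroid receptors. An shRNA is processed into a short RNA that guides the cleavage of a messenger RNA with the matching sequence. The sequences through which Hic-5 was targeted and measured are shown because the check of the clones rests on them. Neither 21-base target was found, on either strand, in any of the 41000 probe sequences, and the labels do not say which target belongs to which clone. The TGFB1I1 probe (A_23_P141055) is given with the position in the array file, chr16:31488267-31488326 (hg19, plus strand).
shRNA target 1: cagttcaacatcacagatgaa
shRNA target 2: cggttgcttcaggaacttaat
TGFB1I1 probe: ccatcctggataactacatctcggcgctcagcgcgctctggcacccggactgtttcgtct

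TGFB1I1 did not differ between the RNAs labelled sh-S1 or sh-S2 and the Ctrl RNA by more than the spread of the clones. Values are log2 ratios of clone over Ctrl, in which 1 is a 2-fold rise. For sh-S1 the TGFB1I1 ratio was -0.16 where Cy5 labelled the clone and 0.12 where Cy3 did, and for sh-S2 it was -0.12 and 0.28. The mean was 0.03 ± 0.07 (SD, n = 2 clones) with limma's adjusted p = 0.856, and the signal was well above background in both RNAs on all 4 arrays. By this 1 probe the targeted messenger RNA was thus not lower in the RNAs labelled as knockdown, and every direction given here rests on the labels. The probe had a mean log2 intensity of 7.75, and the offset of 50 added after background correction can draw dim ratios towards 0. On the scanner software's processed signals, which carry no such offset, the ratio was 0.20. The authors report that these clones were selected by PCR of Hic-5 messenger RNA and by Western blot of the protein. On the scale of normalized log2 Cy3 intensity, TGFB1I1 stood at 9.72 in the RNA labelled sh-S1 and 8.93 in that labelled sh-S2, beside 9.35 and 9.07 in the SKOV3 Ctrl. It was brighter in A2780s cells, at 13.15 in the Ctrl and 17.66 with pCMV-Hic-5.

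Markers of the cell line were examined next, since SKOV3 is known for an amplified ERBB2 and for the loss of CDKN2A. ERBB2, the HER2 receptor tyrosine kinase, was at -1.88 and -2.44 with sh-S1 in Cy5 and Cy3, and at -2.23 and -2.59 with sh-S2, a mean of -2.28 ± 0.18 (SD, n = 2 clones). Its neighbours in the amplified region PGAP3 and MIEN1 were lower too, with means of -1.32 and -1.10. Of the 9 genes in a list of SKOV3 identity genes 7 were tested, with 3 lower, 1 higher and a median of -0.74. By the thresholds given below, 5.36% of all tested genes were lower and 3.86% higher. The other tested members of that list were not called. CDKN2A, which encodes the p16 inhibitor of CDK4 and CDK6, was higher at 1.06 ± 0.68 by its brighter probe and at 1.74 by the other. The brighter probe was at 1.54 in sh-S1 and at 0.58 in sh-S2, the latter short of 2-fold. It also gave a signal in the SKOV3 Ctrl, with Cy3 levels of 10.91 and 10.76. The other probe was dimmer there, at 8.52 and 8.23, with 2 of its 4 Ctrl signals well over background. Whether the Ctrl cells lack CDKN2A was not tested. PAX8, the transcription factor of Müllerian epithelium, fell by 3.58 on the log2 scale, with values from -3.75 to -3.40 over the 4 arrays. Another PAX8 probe, too dim to pass the filter, was at -0.06. WT1 and MUC16, the other ovarian and Müllerian markers examined, were tested and not called, at -0.02 and 0.06. Both were dim, at a mean log2 intensity of 7.2. The simple-epithelial keratins KRT18, KRT19, KRT7 and KRT8 were at -3.53, -2.55, -2.20 and -2.14, with a dimmer KRT8 probe at -0.38. TGFBR2, the type II TGFβ receptor, and CDH2, N-cadherin, were at -2.71 and -1.46, below 0 on every array. The mesenchymal filament VIM was among the brightest signals and was not called at a mean of 0.42, but it was 1.15 and 1.41 on the arrays with the clones in Cy5, which alone passed both thresholds, and -0.50 and -0.37 on those with the clones in Cy3. A second VIM probe was above 0 on all 4 arrays, at 1.20 and 0.18 in sh-S1 and at 1.16 and 0.14 in sh-S2, with a mean of 0.67 ± 0.03 and limma's adjusted p = 0.00199, short of 2-fold. CDH1 and EPCAM did not pass the filter on dim signals. In Cy3 alone EPCAM was at 9.02 and 8.77 in the Ctrl and at 7.57 in sh-S1 and 7.63 in sh-S2, while its mean ratio over both dyes was -0.10. CDH1 was at 7.44 and 7.33 in the Ctrl and at 7.25 in sh-S1 and 7.23 in sh-S2. The 10 tested genes of 18 markers of leukocytes and endothelium held no called gene, with ratios from -0.17 to 0.33. With so few genes, no call is near the shares of all tested genes. PTPRC, PECAM1 and VWF, defining markers of those cells, had no tested probe.

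The levels of whole RNAs were then compared, as Pearson's r of log2 intensity in 1 dye over 38726 probes in Cy3 and 36144 in Cy5, which are not independent replicates. In Cy3, the Ctrl RNA on its 2 arrays correlated with itself at 0.993 and the labelled clones with each other at 0.984. The 4 pairs of a labelled clone with the SKOV3 Ctrl gave 0.932 to 0.938. The 4 pairs of a labelled clone with an A2780s RNA gave 0.947 to 0.964, while the SKOV3 Ctrl reached 0.882 to 0.893 with the A2780s RNAs. In Cy5, where most SKOV3 signals were weak, the order was the other way, with 0.913 to 0.933 for the SKOV3 Ctrl and 0.810 to 0.848 for the A2780s RNAs. Among genes called lower in the labelled clones, the Cy3 level of the A2780s Ctrl lay nearer to the clones than to the SKOV3 Ctrl for 716 of 767 (93.4%), against 62.7% of the genes not called. For genes called higher the count was 477 of 554 (86.1%). In Cy5 the shares were 95.7% for lower and 82.7% for higher genes, against 60.7% of the genes not called. ERBB2, PAX8 and KRT18 are examples, since their clone levels of 11.77 to 12.25, 11.15 to 11.52 and 12.34 to 12.38 lay closer to the A2780s Ctrl at 12.02, 9.90 and 10.76 than to the SKOV3 Ctrl at 14.51 to 14.60, 15.31 to 15.40 and 16.16 to 16.28. TGFB1I1 was a counterexample, as given above. Called genes were chosen for a gap between the clones and the SKOV3 Ctrl in these same signals, so high shares can follow from that choice. Genes not called were not chosen for such a gap and are not a like baseline. The A2780s arrays were on another slide and in another scan, so cell line and slide cannot be told apart, and what part the identity of the cells has in the ratios below was not tested.

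**Figure D1:**
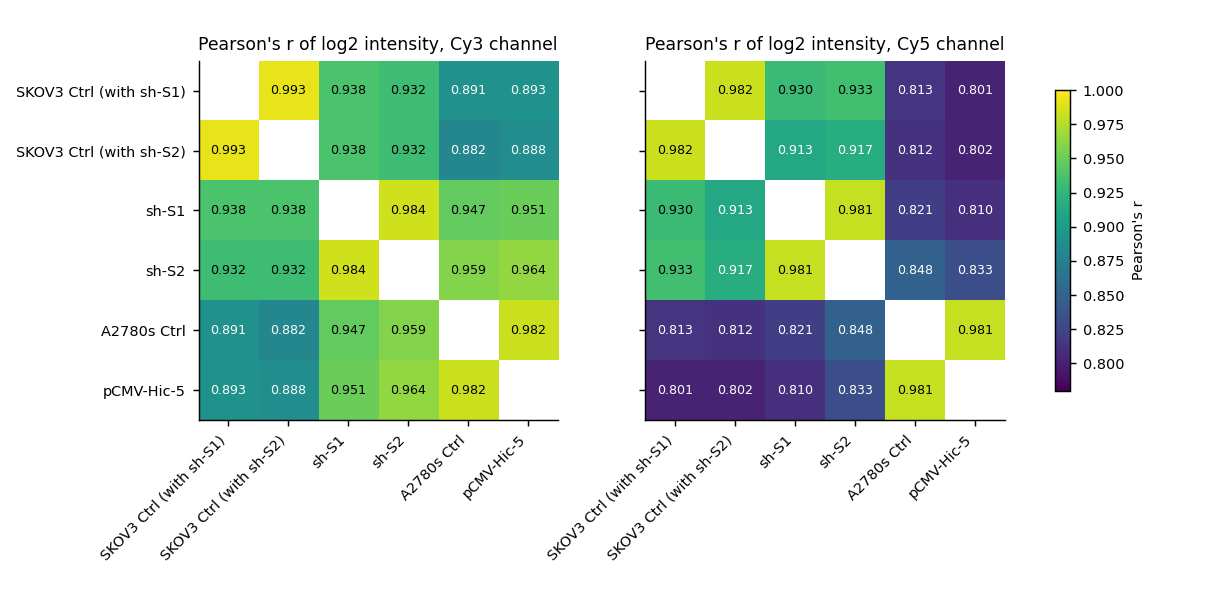
Pearson's r between the log2 intensities of the 6 RNAs in the Cy3 channel (left) and the Cy5 channel (right), 1 cell for each pair of RNAs, with colour and number giving r. In Cy3 the labelled clones stand at 0.947 to 0.964 with the A2780s RNAs and at 0.932 to 0.938 with the SKOV3 Ctrl, and in Cy5 this order is turned.

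Differential expression was sought among the 24935 probes whose signal was well above background on every array in the Ctrl, or on each array of either clone. With limma's adjusted p no higher than 0.05 and a difference of 2-fold or more, 743 probes were higher (2.98% of those tested) and 1038 were lower (4.16%). With 1 value for each of 14428 genes, from its brightest tested probe, 557 genes were higher (3.86%) and 774 were lower (5.36%). These shares are the background for every count below. A direction was shared by all 4 arrays for 549 of the higher and 768 of the lower genes, and each clone by itself passed 2-fold for 439 and 641 of them. Changes over 8-fold were seen in 29 higher and 79 lower genes. The median SD between clones was 0.16 for higher and 0.15 for lower genes. Because both clones were set against 1 Ctrl RNA, the spread of the Ctrl does not enter the test. Lower genes read weaker with the clone in Cy5, with array medians of -1.38 and -1.45 against -1.70 and -1.86 in Cy3. The Cy5 signal was the dimmer one, with 43.7% to 63.6% of spots well above background against 88.8% to 94.5% in Cy3. Near background the size of a change was uncertain. Of 306 called genes in the lists or among the largest changes, 46 were not above background on all 4 arrays in the RNA where they were dim, and on Feature Extraction's processed signals all 46 lay over 1.5 times further from 0, by a median of 1.73 on the log2 scale. Of the other 260, 64 did so, and no gene of the 306 came over 1.5 times nearer. Among those named below, the 46 include ACAA2, AKR1C2, ANXA3, BIRC3, CDK6, CXCL2, CXCL8, GATA6, ISL1, LAMA3, LAMB1, MEOX2, MET, NRG1, PHLDA1, PMAIP1, POSTN, PSMB8, PTPN3, SLC7A11 and SPRY4.

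**Figure D2:**
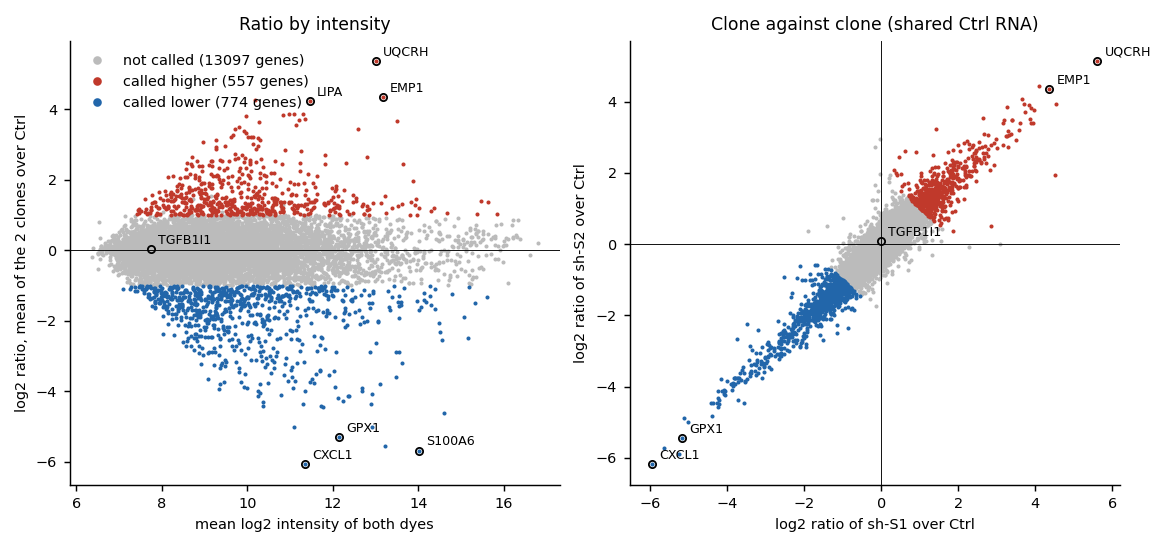
Each point is 1 of 14428 tested genes, with the mean log2 ratio of the clones over Ctrl against mean log2 intensity (left) and the log2 ratio of sh-S2 against that of sh-S1 (right, both against the same Ctrl RNA). The 557 called higher are red, the 774 called lower are blue, and TGFB1I1 lies at 0.03 among the genes not called.

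UQCRH, the hinge subunit of respiratory complex III, rose furthest. Its log2 ratio was 6.59 and 4.63 with sh-S1 in Cy5 and Cy3, and 6.24 and 4.05 with sh-S2, a mean of 5.38 ± 0.33 (SD, n = 2 clones) or 41.5-fold. Limma's adjusted p for UQCRH was 2.09e-06, and a second probe from another part of the message gave 5.31. Both probes are shown because they measured the largest rise and do not overlap. UQCRH has a near-identical intronless copy, UQCRHL, and their signals may not be separable. The first is A_32_P54137, whose match spans an intron at chr1:46775954-46782248, and the second A_24_P102769 at chr1:46775859-46775918 (both hg19, plus strand).
UQCRH probe 1: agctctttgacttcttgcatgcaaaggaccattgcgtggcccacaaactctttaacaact
UQCRH probe 2: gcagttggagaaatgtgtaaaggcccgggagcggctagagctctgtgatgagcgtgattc
No other of the 10 tested complex III genes was called, the lowest being at -0.70. Complexes I and IV and ATP synthase had 3 of 51 tested members higher and none lower, among them NDUFB8 at 1.40 and NDUFA5 at 1.19, the latter with another probe at 0.22.

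After UQCRH, the largest rises were in EMP1, an epithelial membrane protein, at 4.35 ± 0.02 and C1orf54 at 4.27 ± 0.23. EMP1 was between 3.86 and 4.86 on every array, but its dimmer probe was at 0.81. LIPA, the lysosomal acid lipase, was at 5.30 and 3.76 in sh-S1 and at 4.54 and 3.30 in sh-S2, a mean of 4.23 ± 0.43. It stood apart from the other lysosomal genes, of which 2 of 41 tested were higher in all, GLB1 being the other at 1.09, and 3 were lower, including the protease CTSB at -2.08. The developmental transcription factors TBX2 and NR2F1 were both at 3.87, with array values from 3.41 to 4.33 for TBX2 and from 3.71 to 4.08 for NR2F1. GJA1, the gap junction protein connexin 43, was at 3.87 ± 0.30, and RDH10, a retinol dehydrogenase, at 3.85 with another probe at 1.42. CXXC4, an inhibitor of Wnt signalling, was at 3.81 with another probe at 2.95, and SOCS2, a suppressor of cytokine signalling, at 3.71 with another at 1.61. PCDH9, a protocadherin, was the one of the 25 largest rises on which the clones differed most. It was at 5.45 and 3.56 in sh-S1 but at 1.99 and 1.92 in sh-S2, a mean of 3.23 ± 1.81 with limma's adjusted p = 0.00325.

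The further rises among the 25 largest ran from 3.19 to 3.69. They held RAB34, VMO1, ARMC9, FAM171B, DNM3OS, the neurofilament gene NEFH, TMEM30B and the homeobox gene DLX2, beside genes described with their groups below. ARMC9, FAM171B and TMEM30B each had a probe that missed 2-fold, at 0.24, 0.46 and 0.09.

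**Figure D3:**
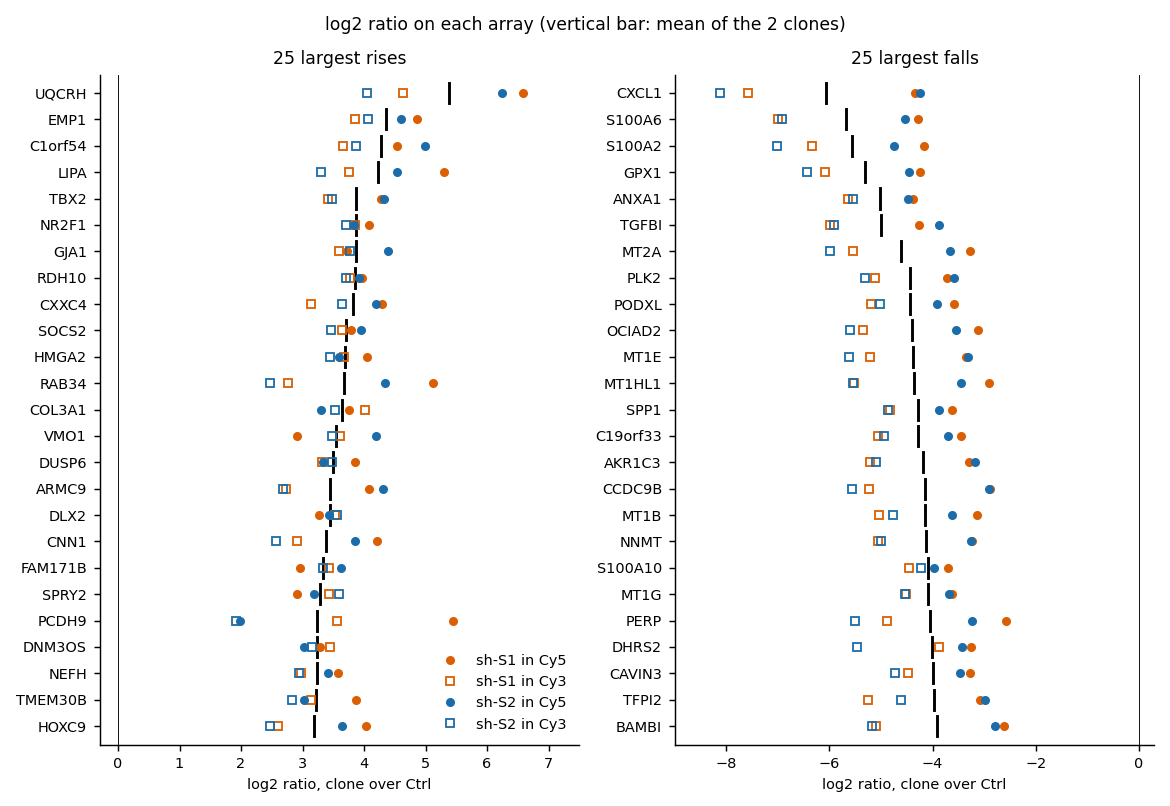
log2 ratio of clone over Ctrl on each of the 4 arrays for the 25 genes that rose furthest (left) and the 25 that fell furthest (right), with circles for clones in Cy5, squares for clones in Cy3, orange for sh-S1, blue for sh-S2 and a bar for the mean of the clones. All 4 arrays have the same sign for every gene because the genes were chosen for that. The falls are larger with the clone in Cy3, as for CXCL1 at -7.59 and -8.12 against -4.34 and -4.25.

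CXCL1, a chemokine that attracts neutrophils, fell furthest of all genes. Its log2 ratio was -4.34 and -7.59 with sh-S1 in Cy5 and Cy3, and -4.25 and -8.12 with sh-S2, so the dye orientation moved it more than the clone did. The mean for CXCL1 was -6.07 ± 0.15 (SD, n = 2 clones), 67.4-fold lower, with limma's adjusted p = 2.09e-06. Among 28 inflammatory chemokines, cytokines and NF-κB genes, 20 were tested, 7 were lower (35.0% against the 5.36% of all genes) and none was higher. CXCL2 was at -2.19 and CXCL8, interleukin 8, at -1.34, on 4 arrays from -1.61 to -1.09, though CXCL8 was well above background in the clones on 2 of 4 arrays and was at -4.50 on processed signals. The others were TNFAIP2 at -2.99, BIRC3 at -1.32 (above background in the clones on 2 of 4 arrays), NFKBIA, the inhibitor of NF-κB, at -1.31 and the NF-κB subunit RELB at -1.12. NF-κB is the transcription factor best known for driving these genes, so their promoters were searched on both strands for GGNNNTTCC, a loose form of its site. Of the 22 members with a RefSeq promoter window around the start, 17 held a match (77.3%), as did 20.1% of all 35116 windows of that length. All 6 of the members called lower that had a promoter were among the 17. So were CXCL3, CXCL5, IL6, TNFAIP3, NFKB1, NFKB2 and LCN2, which were tested and not called, while IL1B and IL11 held none. A member with several windows was scored by the window with most matches, whereas the 20.1% counts each window singly. These genes are known for NF-κB, so a high share was likely from the outset, and any part of NF-κB in the fall was not tested. The stretch from 110 to 31 bases before the start is shown for the chemokines called lower, with matches in capitals, from chr4:73869283-73869362 (plus), chr4:74099226-74099305 (minus) and chr4:73740459-73740538 (plus) of GRCh38.p14.
CXCL1 promoter: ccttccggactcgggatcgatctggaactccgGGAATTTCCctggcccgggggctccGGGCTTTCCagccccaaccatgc
CXCL2 promoter: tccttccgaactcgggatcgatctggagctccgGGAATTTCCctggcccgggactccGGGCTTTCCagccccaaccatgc
CXCL8 promoter: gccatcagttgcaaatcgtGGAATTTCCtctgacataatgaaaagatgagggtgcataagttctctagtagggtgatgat
CXCL1 and CXCL2 hold 2 matches each in this stretch and CXCL8 holds 1. A match is a run of letters and not evidence of a bound factor.

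Metallothioneins, small cysteine-rich proteins that bind zinc, copper and cadmium, were lower as a family. Of 12 members on the array 10 were tested, 8 were lower and none was higher, with a median of -3.86 where the median of all genes was 0. MT2A was at -3.27 and -5.54 in sh-S1 and at -3.66 and -5.98 in sh-S2, a mean of -4.62 ± 0.29 (SD, n = 2 clones), and its other probes reached up to -3.90. MT1E, MT1B, MT1G, MT1L, MT1X, MT1H and MT1A were at -4.37, -4.14, -4.09, -3.92, -3.80, -3.59 and -3.20, with a further MT1X probe at 0.07. The messages of this family are near-identical, so how much each probe draws from its relatives is uncertain. The same holds for MT1HL1, an intronless relative on chromosome 1, at -4.36. MT1H, MT1A, MT1B, MT1G and MT1X followed one another among the tested genes of chr16:56670790-56717957 (hg19) and formed the longest run of neighbours called in 1 direction. Metals act on these promoters through a metal response element, whose core TGCNCNC was searched on both strands. All 5 members with a RefSeq promoter, 4 of them called lower, held 3 or more matches, as did 8.75% of all promoters, and 55.9% of all promoters held at least 1. The fifth, MT4, was not tested and held 6. Because the element is known from promoters of this family, the matches were likely from the outset, and any part of it in the fall was not tested. Stretches from 120 to 31 bases before the start are shown with matches in capitals, from chr16:56608464-56608553 and chr16:56682350-56682439 (GRCh38.p14, plus strand).
MT2A promoter: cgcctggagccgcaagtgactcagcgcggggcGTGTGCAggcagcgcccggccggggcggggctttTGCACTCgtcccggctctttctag
MT1X promoter: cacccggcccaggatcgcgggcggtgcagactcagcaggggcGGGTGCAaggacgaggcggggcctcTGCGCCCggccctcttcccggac

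S100 proteins and annexins bind calcium and take part in membrane and cytoskeletal contacts. Among the S100 genes 7 of 15 tested were lower (46.7%) and none was higher, and among the annexins 5 of 10 were lower and none was higher. S100A6, calcyclin, was at -4.29 and -7.00 in sh-S1 and at -4.53 and -6.91 in sh-S2, a mean of -5.68 ± 0.05 (SD, n = 2 clones) or 51.3-fold lower. Its probe, shown for the second largest fall, spans an intron at chr1:153507255-153507685 (hg19, minus strand).
S100A6 probe: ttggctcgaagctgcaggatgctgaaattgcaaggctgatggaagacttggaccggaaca
S100A2 was at -5.57 ± 0.45 and S100A10, the partner of annexin A2, at -4.09 ± 0.01. S100A4, S100A16, S100A11 and S100A3 were at -2.88, -2.86, -1.98 and -1.55. Together, S100A4, S100A3, S100A2 and S100A16 lay next to each other among the tested genes of chr1:153516198-153579734 (hg19), and all fell. ANXA1, an anti-inflammatory annexin, was at -5.01 ± 0.01, with array values from -5.65 to -4.38. ANXA3 was at -3.79, above background in the clones on 3 of 4 arrays, and at -5.54 on processed signals. ANXA2 was at -2.33, with another probe at -0.54.

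MHC class I molecules show peptides made by the proteasome and moved by TAP transporters to T cells, and 12 of 18 tested genes of this route were lower (66.7%) with none higher and a median of -1.33. HLA-C, HLA-B and HLA-E were at -2.55, -2.02 and -1.15, but class I genes share long stretches and their probes may read one another. B2M, the light chain with no such relative, was at -2.40 and -1.24 in sh-S1 and at -2.26 and -1.30 in sh-S2, a mean of -1.80 ± 0.03 (SD, n = 2 clones). The immunoproteasome subunits PSMB8, PSMB9 and PSMB10 were at -1.54, -1.35 and -1.30, the trimming peptidase ERAP2 at -1.97, and the transporter TAP1 at -1.25 ± 0.46, between -1.68 and -0.92 on the arrays. Other interferon-stimulated genes went both ways, with 5 of 33 tested lower and 3 higher. IFI27 was at -3.05 and IRF7 at -1.91, while IFIT1 was at 2.81 ± 0.05 and the antiviral membrane protein IFITM1 at 1.29. The constitutive proteasome held 2 lower (PSMD6 and PSMA6) and 1 higher (PSMB5) of 35 tested.

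GPX1, the cytosolic glutathione peroxidase, fell furthest of the redox genes tested and reached -4.25 and -6.08 in sh-S1 and -4.45 and -6.44 in sh-S2, with a mean of -5.31 ± 0.20 (SD, n = 2 clones) or 39.6-fold lower. Of 40 tested glutathione, peroxide and NRF2 genes 9 were lower (22.5%) and none was higher. The aldo-keto reductases AKR1C3, AKR1C1 and AKR1C2 were at -4.19, -3.17 and -1.16, and with the transcription factor KLF6, at -1.08 with another probe at -0.45, they formed a run of lower neighbours at chr10:3821387-5147848 (hg19). AKR1C1 to AKR1C3 are near-identical, and another AKR1C1 probe was at -1.16. AKR1C2 was above background in the clones on 2 of 4 arrays and was at -3.64 on processed signals. SLC7A11, the cystine importer, was at -2.42 with another probe at -0.65, and SOD2, the mitochondrial superoxide dismutase, was at -1.79. NNMT, which methylates nicotinamide, was at -4.14 ± 0.01, and DHRS2, a mitochondrial reductase, at -4.00 ± 0.63.

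Matrix, protease and adhesion genes changed in both directions. Of 37 tested collagens, laminins, fibronectin and matricellular genes, 15 were lower (40.5%) and 4 were higher (10.8%, against 3.86% of all genes). TGFBI, a secreted TGFβ-induced matrix protein, was at -5.01 ± 0.17 and SPP1, osteopontin, at -4.29 ± 0.11. The basement membrane genes COL4A2, LAMB3, LAMB1 and LAMA3 were at -3.87, -3.64, -3.33 and -1.91. FN1, fibronectin, was between -3.58 and -3.12 on the 4 arrays, with another probe at -0.71. Among the fibrillar collagens COL5A1 was lower too, at -1.41, while COL1A1 and COL1A2 had no tested probe. COL3A1 and COL5A2, of the same class, rose instead, to 3.65 ± 0.33 and 2.38, with other COL3A1 probes at 2.34 and 1.12. SPARC and POSTN rose too, to 1.78 and 1.13. In the plasminogen and coagulation list 10 of 22 tested were lower (45.5%) and 1 was higher. TFPI2, an inhibitor of plasmin and of tissue factor, was at -3.98 with another probe at -1.15, F3, tissue factor, at -2.78, and PLAU, urokinase, at -2.77 with array values from -2.98 to -2.52. The exception was SERPINF1, which encodes the angiogenesis inhibitor PEDF, at 2.25. The laminin-binding integrins ITGA6 and ITGA3 were at -1.98 and -1.50 and their partner ITGB1 at -1.85, and these were the 3 called of 19 tested. PODXL, a cell surface sialomucin, and PERP, a desmosome protein, were at -4.43 and -4.05. CAVIN3, a caveola coat protein, was at -3.99 with another probe at -0.50, and CAV2, caveolin 2, was at -2.29, while a dimmer CAV2 probe, not well above background in the clones on any array, was at least 3.26-fold lower (limma's adjusted p = 5.18e-05).

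OCIAD2, C19orf33 and CCDC9B, which belong to no list here, were at -4.41, -4.29 and -4.15, with another CCDC9B probe at -1.12 and another C19orf33 probe at -3.29. Of 28 tested surface and stem cell markers 10 were lower (35.7%) and 2 higher, and CD44, the hyaluronan receptor, was at -3.73 ± 0.04. Receptor tyrosine kinases MET and AXL were at -3.25 and -2.65, with another MET probe at -0.07 and MET well above background in the clones on 2 of 4 arrays. Among other growth factors and receptors 9 of 35 were lower (25.7%), including IGFBP7 at -3.92 and EDN1, endothelin 1, at -3.90, and 3 were higher, including HGF, the ligand of MET, at 2.44. ERBB2 was joined by NRG1, a ligand of ERBB3 and ERBB4, at -1.37 and by ERRFI1 at -1.45, while ERBB4 was at 1.40. BAMBI, a pseudoreceptor that dampens TGFβ signals, was at -3.92 ± 0.09. In the list of ERK feedback and target genes, DUSP6, an ERK phosphatase, was higher at 3.50 ± 0.14, as were the Sprouty inhibitors SPRY2, SPRY1 and SPRY4 at 3.28, 2.14 and 1.16. IER3 and PHLDA1, also induced by ERK, were lower at -3.51 and -2.88, with another PHLDA1 probe at -0.22, so that list had 4 higher and 2 lower of 19 tested.

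Apoptosis and cell cycle genes changed in both directions. In the BCL2 family 3 of 20 tested members were higher (15.0%) and 1 was lower. BAX, the mediator of mitochondrial apoptosis, was at 1.61 and 1.99 in sh-S1 and at 1.57 and 1.52 in sh-S2, a mean of 1.67 ± 0.18 (SD, n = 2 clones). BBC3, a death-promoting BH3 protein, was at 1.16 with probes from 0.07 to 2.60, and the mitophagy receptor BNIP3 was at 1.17 ± 1.09. BNIP3 rested on 1 clone, since it was at 0.40 in sh-S1 and at 1.94 in sh-S2. PMAIP1, another BH3 protein, was lower at -1.59. PLK2, a polo-like kinase, was at -4.44 ± 0.02 and 21.7-fold lower. The G1 regulators held 4 higher and 3 lower of 22 tested, with CDKN1A, the p21 inhibitor, at 1.01 ± 0.35, CDK6, partner of the D cyclins, at -3.24 (above background in the clones on 2 of 4 arrays) and CCND2, cyclin D2, at 1.59 by its brighter and 3.96 by its dimmer probe. Few proliferation genes were called, since of 37 tested mitosis and spindle genes none was called and of 33 DNA replication genes TK1 alone was lower, at -1.47. The median of the mitosis genes was -0.17, and it changed sign on the arrays with the clones in Cy3.

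Oncofetal RNA binders and growth regulators had 6 of 16 tested higher (37.5%) and none lower, with a median of 0.59. HMGA2, an architectural chromatin protein of embryonic cells, was at 3.69 ± 0.24 with another probe at 0.52, and IGF2BP1, an RNA binder, at 3.14 with another at 0.48. IGF2BP3, GPC3, SALL4 and SALL2 were at 2.12, 2.57, 2.55 and 1.51. HOX genes had 5 of 23 tested higher (21.7%) and none lower, led by HOXC9 at 3.19 and HOXB9 at 2.64. Other lineage factors divided evenly, with 7 higher and 7 lower of 32. ISL1, FOXL2 and MEOX2 were higher at 2.10, 2.39 and 2.46, while SOX17, MECOM and GATA6 were lower at -2.88, -2.71 and -1.58, with another SOX17 probe at 0.09. Smooth muscle contractile genes had 6 higher and 4 lower of 18 tested. CNN1, calponin, was at 4.21 and 2.91 in sh-S1 and at 3.85 and 2.57 in sh-S2, ACTA2, smooth muscle actin, was at 2.53, and CNN3 was lower at -2.46. In the Wnt list 6 of 39 tested were higher and 2 were lower. The higher genes held the antagonists KREMEN2 at 2.92 and DKK1 at 2.49, but also the receptors FZD7 and FZD8 at 1.75 and 1.77 and the ligand WNT6 at 1.28. DKK3 was lower at -3.79 with another probe at -0.88.

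**Figure D4:**
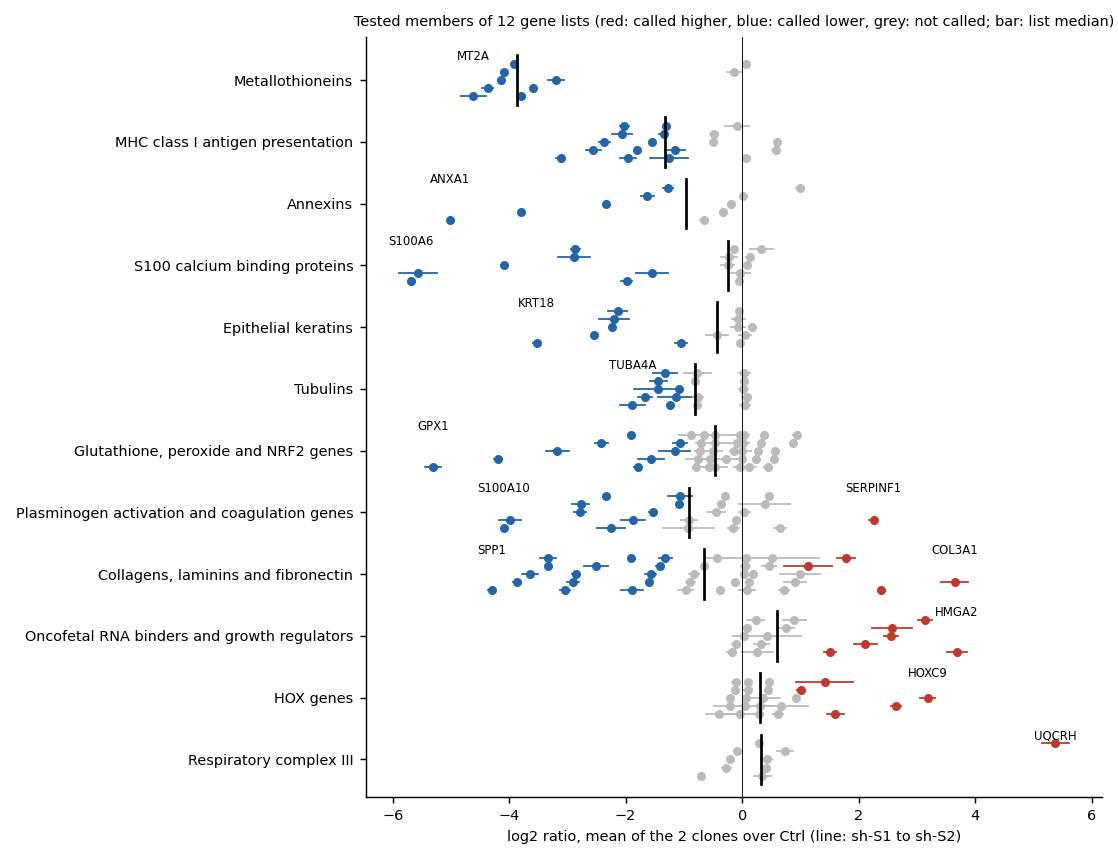
Tested members of 12 gene lists, 1 point for each gene at the mean log2 ratio of the clones over Ctrl, with a line from the value of sh-S1 to that of sh-S2 and a bar for the list median. Metallothioneins have a median of -3.86 and MHC class I genes one of -1.33, and UQCRH at 5.38 lies apart from the other complex III genes.

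Tubulins were lower in 8 of 17 tested genes (47.1%) with none higher. TUBA1B was at -0.42 and -2.64 in sh-S1 and at -0.46 and -1.79 in sh-S2, so its mean of -1.33 came largely from the arrays with the clones in Cy3, and α-tubulin genes share most of their sequence. Ribosomal proteins had 6 of 80 tested higher and none lower, led by RPL22L1 at 2.46. Their median of 0.33 changed sign on the arrays with the clones in Cy3, so no direction is given for that family. Heat shock proteins had 3 lower of 34, with HSPA1A at -3.16 (another probe at -0.45) and HSP90AA1 at -1.92, and 1 higher, PDIA4 at 1.34. In metabolism, cholesterol and fatty acid synthesis had 5 higher and 3 lower of 38, including the sterol isomerase EBP at 2.10 and SREBF1 at 1.75 with another probe at 0.43. Branched-chain and methionine degradation had 5 higher and 2 lower of 32, including ACAA2 at 3.09 with another probe at 0.92. ACAA2 was above background in the Ctrl on 3 of 4 arrays and was at 5.10 on processed signals. Glycolysis and hypoxia genes had 5 lower of 28, led by the lactate exporter SLC16A3 at -2.87, and 2 higher, PFKM at 2.18 and BNIP3, given above. Of 11 tested cancer-testis antigens and 3 of the growth hormone cluster none was called.

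**Figure D5:**
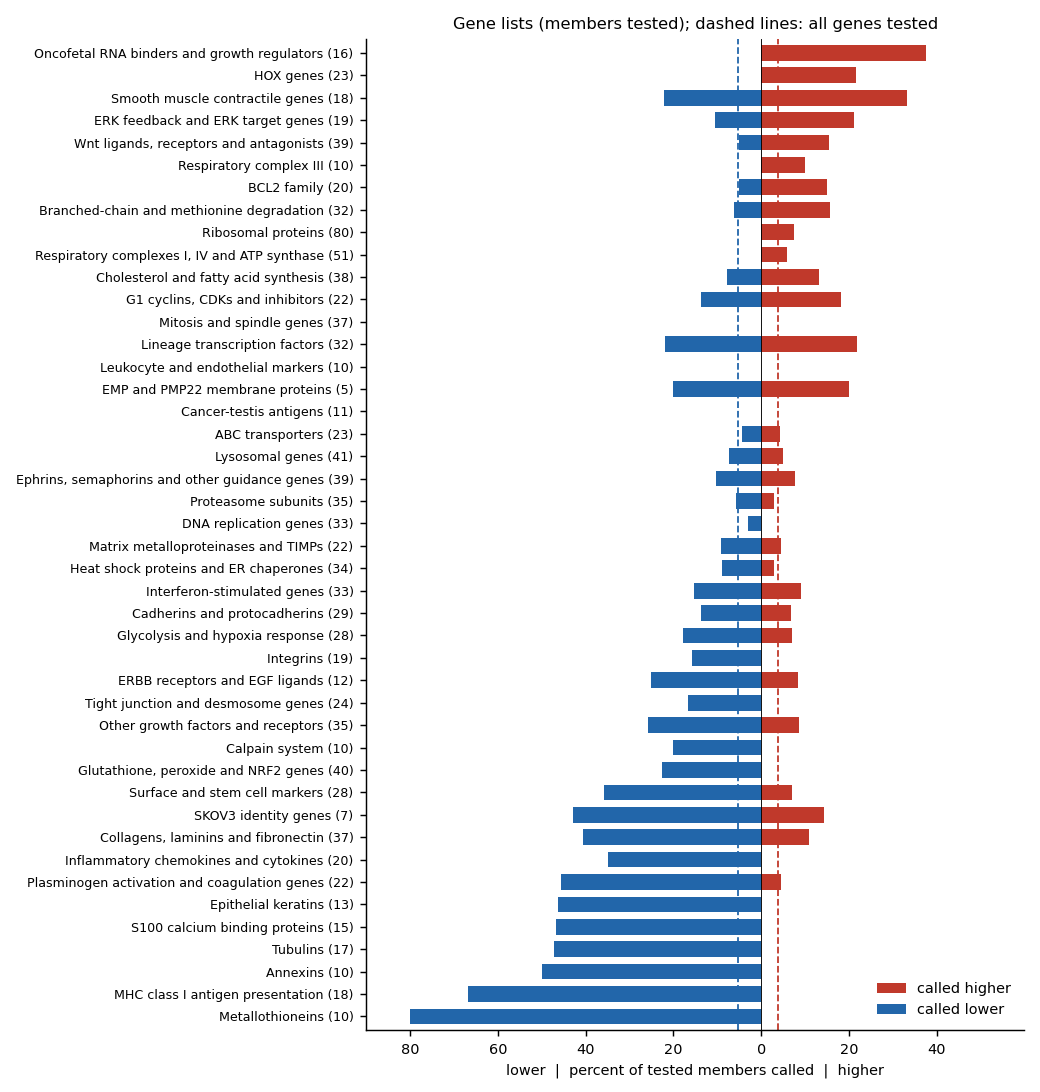
Percent of tested members called lower (blue, left) and higher (red, right) in 44 gene lists with at least 5 tested members, whose number stands in brackets, with dashed lines at the 5.36% and 3.86% of all genes. Metallothioneins have 8 of 10 tested members lower, and oncofetal genes reach 37.5% higher.

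Along the genome, calls were found on each autosome and on X. The share of tested genes called higher ran from 1.62% on chromosome 8 to 5.45% on chromosome 15, and that called lower from 2.77% on chromosome 19 to 7.82% on chromosome 6. Chromosome medians lay between -0.08 and 0.14, and the highest, on chromosome 7, was 0.12 in sh-S1 and 0.14 in sh-S2. Runs of at least 4 neighbouring tested genes called the same way numbered 5, of which 3 are given above. One of the other two was the single run of higher genes, DNM3OS, DNM3, PIGC and SUCO at chr1:172111285-172580815, with ratios from 1.02 to 3.23, in which DNM3OS lies antisense within DNM3 and another PIGC probe was at 0.36. The last held CTNNAL1, TMEM245, EPB41L4B and PTPN3 at chr9:111705005-112140928, with ratios from -1.70 to -1.09 (all hg19), and further probes of TMEM245 and EPB41L4B were at -0.44 and -0.07.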

How the data were processed

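The authors deposited Agilent Feature Extraction scanner files (version 10.7.3.1 in the file headers, 8.5.1.1 in the submitters' processing notes), with mean and background intensity of each spot in both dyes. The deposited log10 ratios and Feature Extraction's processed intensities served for checks and as an alternative.

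Of 45015 spots on each array 1639 are controls. Background was corrected with normexp (limma 3.58.1, offset 50, fitted without spots flagged for background), ratios were normalized by loess, outlier spots were left out, and probes needed a value on all 4 arrays. Ratios were turned to clone over Ctrl by the dyes in the labels, dye swaps were averaged, and limma's lmFit and eBayes (R 4.3.3) tested the mean of the 2 clones against 0, with Benjamini-Hochberg adjustment over all probes. The SKOV3 arrays share 1 slide and 1 scan. Precision is limited by the number of arrays. The labels name separate clones but no repeat cultures, so p-values measure the spread between these clones only. Calling was tested on simulated data with independent spreads drawn from limma's own fit to bright probes. That simulation held no shared Ctrl RNA, dye effect or dim probes, so it cannot say how calling fares under those.

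Genes were named through RefSeq (GRCh38.p14, names only): 28078 probes by accession, 2910 by symbol, 10012 unmatched. For genes with several probes the brightest tested one was used. The text names the 25 largest rises and falls past both thresholds with 1 direction on all 4 arrays, and members of 47 gene lists and markers, some of which are not reported here. Members and lists were chosen with earlier results of these data known. Bounds used levels per channel after Aquantile normalization, with the lowest signal well above background as the floor.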

Additional observations from a re-analysis of the deposited data

How the results depend on the processing

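On Feature Extraction's processed signals 1970 probes were higher and 2352 lower, which took in 728 of the 743 and 1018 of the 1038 given above. With the clones in Cy3 alone 1222 probes were higher, and with median centring in place of loess 1578 were lower. The other alternatives (normexp fitted on all spots, no background correction, no filter on dim probes, a stricter filter, the clones in Cy5 alone) kept both counts within 1.5 times, and no probe was called the opposite way under any of these 8 alternatives. Similar counts did not mean the same probes. Of the 743 higher and 1038 lower probes, the clones in Cy5 alone called 580 and 792 again. The clones in Cy3 alone called 608 and 947 of them, and median centring 621 and 1038. Without one clone no test is left, so call counts have no such value. TGFB1I1 was at -0.14 with the clones in Cy5 alone, and at -0.02 to 0.08 without one clone. VIM was at -0.43 with the clones in Cy3 alone. The 50 largest changes stayed past both thresholds with their direction in 400 of 400 refits, which was likely from the outset, since they were chosen for size and direction on these same arrays. Of 2410 refits of 307 named or listed genes 84 fell short of a threshold, 42 of them with the clones in Cy5 alone and 24 in Cy3 alone. The stricter filter left 46 of these genes without a value. Genes named in the text that fell short of 2-fold with the clones in Cy5 alone included AKR1C2, BIRC3, CD59, CDKN1A, CDKN2A, EPB41L4B, ERBB4, GATA6, HLA-E, IFITM1, PIGC, POSTN, PSMB5, PSMB9, PTPN3, RELB, SPRY4 and TUBA1B, and in Cy3 alone BBC3, CTNNAL1, KLF6, MIEN1, NDUFA5, PSMA6, PSMB10 and PSMD6. BNIP3, CDKN1A, GLB1, NDUFA5, PIGC and PSMB5 missed a threshold with median centring, and CD59 and PSMB5 on processed signals. The mean r of the labelled clones with the SKOV3 Ctrl was 0.935, and it was 0.923 in Cy5 and 0.940 with no filter. Their mean r with the A2780s RNAs was 0.955, and it was 0.943 on processed signals and 0.828 in Cy5. Of 47 list medians 30 were below 0, and 26 to 31 under the alternatives. The cause of these differences was not tested. Clone and Ctrl RNA were paired within each array, since their ratio was tested. No further pairing was possible because sh-S1 and sh-S2 share 1 Ctrl RNA.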

Other observations

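Several genes gave different values by different probes, beyond those named above. TUBA4A was at -1.89 by its brightest tested probe, with probes from -4.50 to -0.78, and TPM1, a tropomyosin, at -1.28 with probes from -2.32 to 0.45. NRP1, a neuropilin, was at -2.71 with another probe at 0.06, and RB1 at -1.38 with another at -0.04. CD59, an inhibitor of complement, was at -1.04 with probes from -1.88 to -0.59. Guidance genes were called in both directions, with 4 lower and 3 higher of 39 tested, including NTN4 at -2.49 and UNC5B, a netrin receptor, at 2.39. Among cadherins, 4 of 29 tested were lower and 2 higher, with kidney-type CDH16 at -3.12 and CDH6 at -2.96, the latter with another probe at -0.29. Of 22 tested matrix metalloproteinases and their inhibitors MMP1 was at -2.72 and TIMP2 at -1.25, while TIMP1 was at 1.88. CDH6, MMP1, NRP1, NTN4 and UNC5B were not above background on all 4 arrays in the RNA where they were dim, and on processed signals they were at -4.68, -3.84, -4.54, -4.83 and 4.13.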
